A study of Mus musculus with 9 samples.

Results

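Neutrophils carry the proteins with which they kill and digest microbes in granules, and this report describes the messenger RNAs of 8 granule proteins and of 1 receptor of that lineage in the spinal cord of mice. The genes were Mpo, Elane and Prtn3 (primary granules), Ltf, Camp, Ngp, Lcn2 and Mmp8 (secondary and tertiary granules) and Csf3r (the receptor for granulocyte colony-stimulating factor). A probe set, a group of short oligonucleotides meant to read the transcripts of a gene, was taken when its annotated gene symbol was one of these names alone. Member probe sets were treated alike whatever the letters in their names (_at, _s_at, _g_at or _r_at). Which transcripts each of them reads was not checked. That gave 13 probe sets for 9 genes, out of 12488 probe sets on the array. Lcn2 and Mpo had 2 probe sets each, Csf3r had 3, and each of the other genes had 1.

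Whole spinal cords of B10.PL mice gave the total RNA, which was hybridised to 9 arrays with 1 colour each, 1 per sample. Naive mice (replicates 2, 3 and 4) had no disease, and the labels give them no treatment or time. The other mice had EAE (experimental autoimmune encephalomyelitis), in which immune cells attack the brain and spinal cord much as in multiple sclerosis. They received placebo (replicates 1, 5 and 10) or 200 ng of 1,25(OH)2D3 (replicates 6, 7 and 8; calcitriol, the active vitamin D hormone), and their cords were removed 6 h later. The title of calcitriol replicate 6 names 1,25(OH)2D2, whereas its description names 1,25(OH)2D3. This array was left among the calcitriol arrays. The labels do not say how EAE was induced, what the placebo was, how the mice stood clinically, or whether replicates were separate animals, so the spread between arrays may be technical.

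In the bone marrow, granule genes are switched on one after another. Primary granule proteases and myeloperoxidase are made in promyelocytes, the secondary granule proteins in myelocytes and the tertiary granule proteins later, so a circulating neutrophil holds much of the protein but little of the primary granule messenger RNA. C/EBP and ETS family factors, among them C/EBP epsilon and PU.1, drive many of these genes. Lcn2 is also made by reactive astrocytes, endothelium, epithelium and liver in inflammation, where NF-kappa B and C/EBP factors induce it. Whether cells other than neutrophils make the other members was not examined here. Messenger RNA of whole cord mixes all its cells, so that fewer cells of a type and less RNA per cell cannot be told apart.

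Signals are given in the deposited linear intensity units after each array was scaled to the same trimmed mean of 192.8, and differences are on the log2 scale with the standard error (SE) of the fit. Values below a floor of 19.3 signal units were raised to it. All 13 probe sets passed the filter on low values, which asked for 3 or more of the 9 arrays to exceed that floor, and 11 of them were above it on every array. No detection calls were used. A signal above the floor is therefore no evidence of a transcript by itself: the probe set for Vpreb1, a gene of pre-B cells in bone marrow, gave 650.5 to 1059 signal units over the 9 arrays. Levels of different probe sets are not compared.

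Naive arrays resembled each other less than EAE arrays did. Log2 signals of array pairs correlated at 0.773 to 0.879 across probe sets within the naive group, with replicates 2 and 4 the lowest pair, at 0.923 to 0.938 within placebo and at 0.902 to 0.941 within calcitriol. Between 6.12% and 11.3% of probe sets lay at the floor. The arrays of EAE cord also had a lower beta-actin 5′ minus 3′ log2 difference, a measure of how far labelled RNA reached from the 3′ end, at -0.80 ± 0.35 (SD, n = 3) for placebo and -0.67 ± 0.16 (SD, n = 3) for calcitriol against -0.05 ± 0.19 (SD, n = 3) for naive. Its part in the differences from naive cord given here was not tested. Among the members, placebo replicate 10 was the highest array of 4 probe sets, and naive replicate 2 was the lowest of 4.

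The stretch before the transcription start shows what the members share in sequence. RefSeq windows (GRCm38.p6) of 250 bases before the start were found for 9 of 9 genes, and 5 motifs were searched on both strands. The C/EBP motif TTGCNNAA lay in the windows of Lcn2, Ltf, Mmp8 and Ngp, which is 4 of 9 members against 9.56% of all 32851 windows. These are 4 of the 5 secondary and tertiary granule members. Camp, the fifth, and the primary granule genes had no match in their windows. The ETS motif GAGGAA lay in 7 of 9 members (all but Camp and Ngp), against 23.3% of all windows. The NF-kappa B motif lay in the Csf3r window alone (1 of 9, against 7.25% of all windows), 129 to 120 bases before the start. The STAT motif TTCNNNGAA (7.02% of all windows) and the vitamin D receptor direct repeat (0.189% of all windows) were in none of the 9 windows. Such a match is a run of letters and no measured binding site.

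Of the windows, those of Lcn2, Ltf and Csf3r are printed because these genes carry the largest differences in the cord, although only that of Lcn2 was called. Those of Ngp and Mpo are printed to stand for a secondary and a primary granule gene whose EAE and naive arrays overlapped. Each is written 5′ to 3′ along the gene's strand, and capitals mark the C/EBP and ETS matches.
Lcn2, chr2:32387740-32387989, minus strand: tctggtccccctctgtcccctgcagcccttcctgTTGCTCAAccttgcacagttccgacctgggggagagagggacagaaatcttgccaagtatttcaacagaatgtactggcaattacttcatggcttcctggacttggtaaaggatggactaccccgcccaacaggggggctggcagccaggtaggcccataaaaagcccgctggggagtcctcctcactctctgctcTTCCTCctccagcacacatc
Ltf, chr9:111019042-111019291, plus strand: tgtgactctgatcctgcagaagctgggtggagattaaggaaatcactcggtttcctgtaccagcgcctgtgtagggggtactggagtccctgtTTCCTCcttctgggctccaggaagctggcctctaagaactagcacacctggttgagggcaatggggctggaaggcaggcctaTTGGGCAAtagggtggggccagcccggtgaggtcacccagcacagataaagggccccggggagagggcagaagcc
Csf3r, chr4:126024409-126024658, plus strand: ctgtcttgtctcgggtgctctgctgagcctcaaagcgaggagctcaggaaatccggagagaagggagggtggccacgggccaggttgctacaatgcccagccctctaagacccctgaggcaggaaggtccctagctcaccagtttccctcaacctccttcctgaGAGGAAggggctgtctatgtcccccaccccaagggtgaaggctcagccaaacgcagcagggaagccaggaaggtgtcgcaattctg
Ngp, chr9:110419558-110419807, plus strand: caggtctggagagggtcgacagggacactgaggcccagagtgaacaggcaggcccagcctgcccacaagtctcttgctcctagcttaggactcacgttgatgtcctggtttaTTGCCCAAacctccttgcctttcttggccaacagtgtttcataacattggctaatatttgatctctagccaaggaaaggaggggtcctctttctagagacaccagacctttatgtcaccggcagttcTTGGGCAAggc
Mpo, chr11:87793534-87793783, plus strand: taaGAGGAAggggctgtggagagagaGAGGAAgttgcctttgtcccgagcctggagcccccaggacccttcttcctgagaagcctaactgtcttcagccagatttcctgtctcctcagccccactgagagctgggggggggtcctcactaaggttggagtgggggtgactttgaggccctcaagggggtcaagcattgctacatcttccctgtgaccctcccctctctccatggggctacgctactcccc
In the Lcn2 window the C/EBP match TTGCTCAA began 216 bases before the start and an ETS match, on the opposite strand, ended 15 bases before it. In the Ltf window the C/EBP match was TTGGGCAA, on the opposite strand, 75 to 68 bases before the start. Ngp had 2 C/EBP matches, which began 138 and 11 bases before its start. Mpo had 2 ETS matches, which began 247 and 224 bases before its start. Elane and Prtn3, which are neighbours in the RefSeq annotation, each had 1, beginning 85 and 95 bases before their starts.

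EAE cord differed from naive cord in 1 member probe set, Lcn2 160564_at, by about 4-fold in both treatment groups, while the other Lcn2 probe set was 1.57-fold and 1.74-fold higher and was not called. Of the 13 probe sets, 1 rose in placebo-treated EAE and 12 did not pass the test (limma, adjusted p under 0.05 over all 12177 probe sets tested, of which 0.936% were called). In calcitriol-treated EAE the same probe set rose and 12 did not pass, where 2.00% of all probe sets were called. At an unadjusted p under 0.05 there were 4 of 13 member probe sets in each comparison, where 9.33% of all probe sets were with placebo and 11.9% with calcitriol. The 4 probe sets whose EAE arrays all lay above all naive arrays were the pair for Lcn2, the Ltf set and 1 of 3 for Csf3r, in both comparisons, and no probe set had all EAE arrays below all naive arrays. Over all probe sets, 7.39% were higher without overlap and 7.13% lower in placebo-treated EAE, and 8.45% were higher and 7.69% lower in calcitriol-treated EAE. The median difference of the 13 probe sets was 0.34 log2 for placebo against -0.02 over all probe sets, and 0.23 log2 for calcitriol against -0.02. The comparisons share the naive arrays, so their likeness is no separate evidence.

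**Figure D1:**
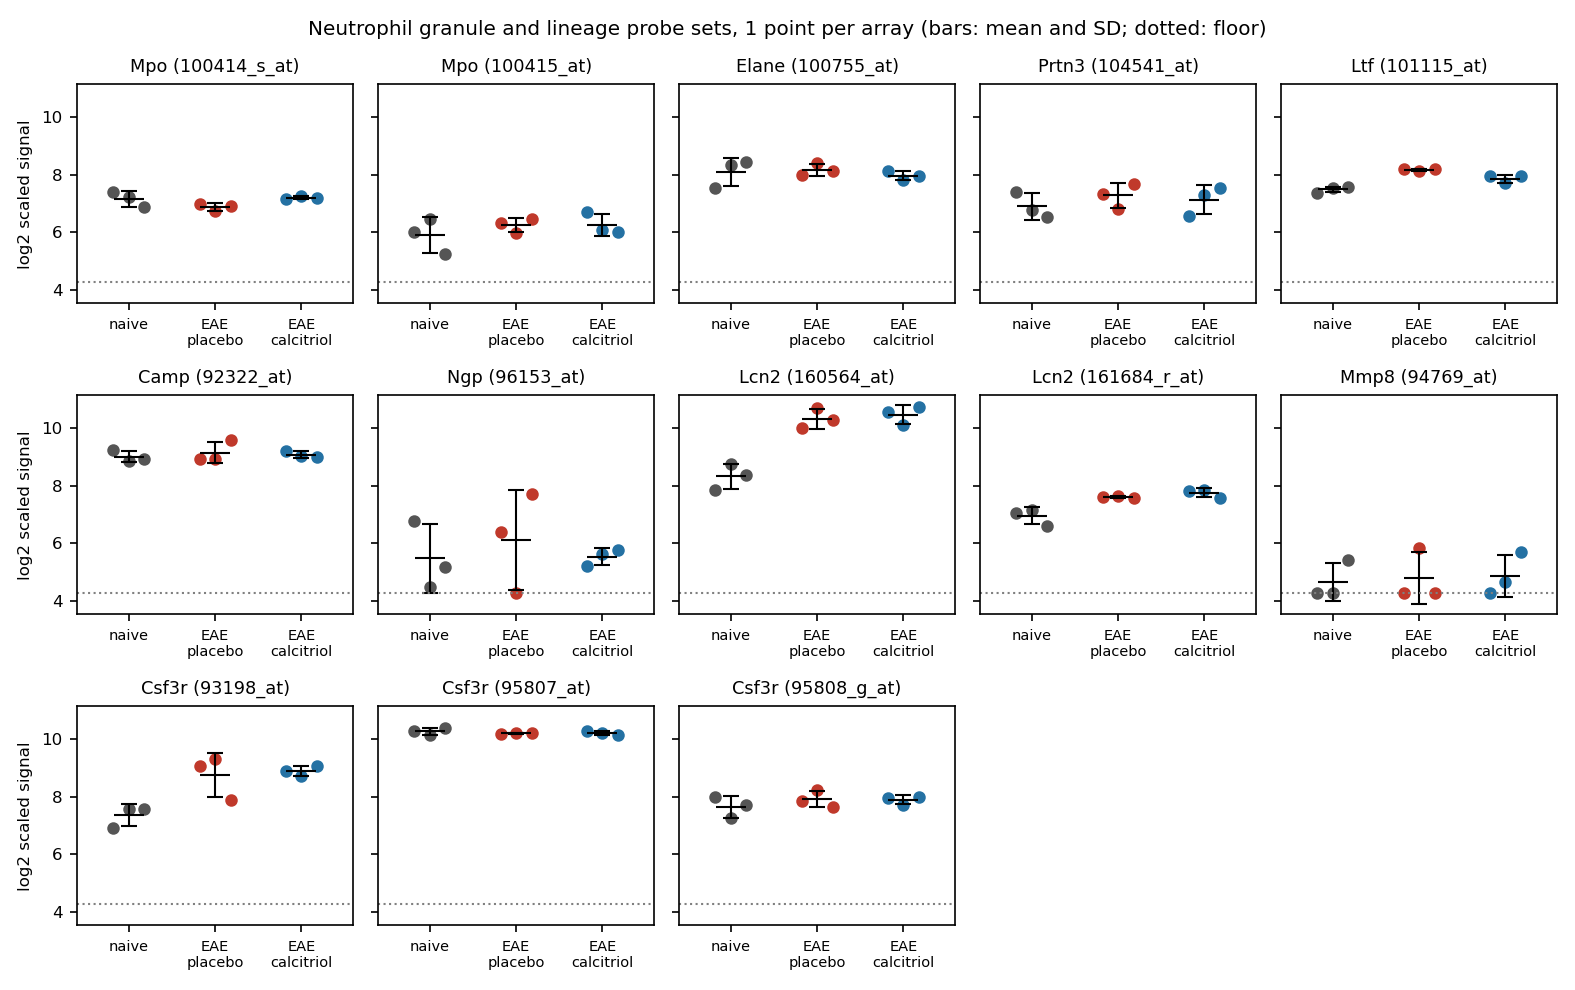
Scaled signal (log2, vertical axis) of each of the 13 probe sets on the 9 arrays, coloured by group, with bars for the group mean and SD and values below 19.3 signal units drawn at that floor. The pair of Lcn2 probe sets, Ltf and Csf3r 93198_at separate naive from EAE arrays, while the others overlap.

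Lcn2 encodes lipocalin 2 (neutrophil gelatinase-associated lipocalin), which binds bacterial iron carriers. Its probe set 160564_at gave 232.7, 429.0 and 328.3 signal units on naive replicates 2, 3 and 4. It gave 1041, 1658 and 1231 on placebo replicates 1, 5 and 10, and 1505, 1115 and 1709 on calcitriol replicates 6, 7 and 8. Every EAE array lay well above every naive array, and the EAE groups ran through each other. On the log2 scale the means were 8.32 ± 0.44 (SD, n = 3) in naive, 10.33 ± 0.34 (SD, n = 3) in placebo and 10.47 ± 0.32 (SD, n = 3) in calcitriol arrays. Lcn2 rose by 2.01 ± 0.26 log2 (SE) with placebo, 4.02-fold with a 95% interval of 2.67 to 6.05 (limma, adjusted p = 0.0104). With calcitriol the rise was 2.15 ± 0.26 log2, 4.44-fold with an interval of 2.95 to 6.68 (limma, adjusted p = 0.00401). Without placebo replicate 5, the brightest placebo array, the placebo difference was 1.82 log2 and no longer passed (limma, adjusted p = 0.0596).

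The other Lcn2 probe set, 161684_r_at, moved the same way by less. It gave 134.4, 144.0 and 98.2 on naive, 194.0, 198.3 and 189.3 on placebo and 226.2, 232.6 and 190.7 signal units on calcitriol arrays. Again no EAE array fell among the naive ones. The differences of 0.65 ± 0.19 log2 (SE) for placebo (limma, adjusted p = 0.222) and 0.80 ± 0.19 for calcitriol (limma, adjusted p = 0.0701) did not pass the threshold. With array weights and with exact zeros treated as missing the calcitriol difference passed (limma, adjusted p = 0.0249 and 0.0494). The first probe set's difference exceeded the second's by 1.36 log2 for placebo and 1.35 for calcitriol (two-sided exact permutation p = 0.1 for each, which 3 against 3 arrays cannot go below, and 0.25 after adjustment over 15 comparisons of probe set pairs).

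Ltf encodes lactoferrin, an iron-binding protein of secondary granules. Its signal was 166.5, 184.5 and 188.8 on naive, 293.8, 281.3 and 293.9 on placebo and 247.5, 209.0 and 246.7 on calcitriol arrays. The 3 groups were stacked without overlap, naive lowest and placebo highest. The placebo difference of 0.69 ± 0.14 log2 (SE), 1.61-fold with a 95% interval of 1.30 to 2.00, came with an unadjusted p of 0.000639 and did not pass after adjustment over all probe sets (limma, adjusted p = 0.0584). It did pass with array weights, with exact zeros treated as missing and on the values as deposited (limma, adjusted p = 0.00921, 0.0437 and 0.0263). The calcitriol difference from naive was 0.38 ± 0.14 log2 (limma, adjusted p = 0.287).

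The other secondary and tertiary granule genes gave no called difference from naive cord. Camp encodes the precursor of the antimicrobial peptide CRAMP, and its signal lay at 470.1 to 608.7 in naive cord, 485.4 to 762.6 after placebo and 505.9 to 598.2 after calcitriol. The groups covered one another, with differences of 0.13 ± 0.20 log2 (SE) for placebo (limma, adjusted p = 0.900) and 0.07 for calcitriol (limma, adjusted p = 0.939). Ngp encodes neutrophilic granule protein, a cystatin-like protein of secondary granules. Its signal scattered widely, at 110.6, 22.1 and 36.0 on naive, 84.1, 0 and 211.0 on placebo and 36.9, 49.6 and 54.8 on calcitriol arrays. The exact 0 stood on placebo replicate 5 and the highest value on placebo replicate 10, so the group with the widest scatter was placebo. The fitted differences were 0.65 ± 0.83 log2 (SE) for placebo (limma, adjusted p = 0.872) and 0.06 for calcitriol (limma, adjusted p = 0.992). Mmp8 encodes neutrophil collagenase and was above the floor on only 4 of 9 arrays, 1 naive, 1 placebo and 2 calcitriol. Its highest signals were 43.2 on naive, 57.0 on placebo and 51.7 on calcitriol arrays, too dim for a fold change to be read.

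The primary granule genes gave no called difference either, and none separated EAE from naive arrays. Elane, neutrophil elastase, gave 187.1, 322.3 and 346.0 on naive, 254.9, 337.5 and 280.6 on placebo and 277.1, 225.9 and 250.1 signal units on calcitriol arrays. The lowest and the highest of these 9 values were both on naive arrays. Its differences from naive were 0.07 ± 0.24 log2 (SE) for placebo (limma, adjusted p = 0.961) and -0.14 for calcitriol (limma, adjusted p = 0.875). Prtn3, proteinase 3, gave 92.2 to 169.9 in naive cord, 113.2 to 203.6 after placebo and 94.8 to 184.1 after calcitriol. These ranges overlapped over most of their length, and the differences were 0.38 ± 0.34 log2 (SE) for placebo (limma, adjusted p = 0.794) and 0.23 for calcitriol (limma, adjusted p = 0.854).

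Mpo encodes myeloperoxidase, the enzyme that makes hypochlorous acid, and its activity is a common assay of neutrophils in tissue. Probe set 100414_s_at gave 168.4, 148.2 and 116.7 on naive, 126.2, 105.9 and 121.3 on placebo and 142.6, 154.8 and 145.9 signal units on calcitriol arrays. Probe set 100415_at gave 64.8, 88.2 and 38.0 on naive, 80.2, 63.3 and 87.2 on placebo and 103.7, 68.0 and 63.7 on calcitriol arrays. Naive arrays covered nearly the whole range of the first and spread widely in the second. Against naive, placebo differed by -0.28 ± 0.19 log2 (SE) in the first and by 0.34 ± 0.35 in the second, opposite in sign, and neither passed (limma, adjusted p = 0.731 and 0.829). The difference between the pair was -0.63 log2 (two-sided exact permutation p = 0.1, adjusted 0.25). Calcitriol differed from naive by 0.05 and 0.35 log2 (limma, adjusted p = 0.955 and 0.765).

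Csf3r, through which granulocyte colony-stimulating factor drives neutrophil production, was read by 3 probe sets that did not move together. Probe set 93198_at gave 120.6, 191.4 and 188.9 on naive, 543.2, 629.8 and 236.2 on placebo and 477.4, 421.2 and 531.3 signal units on calcitriol arrays. All EAE arrays lay above all naive arrays, but placebo replicate 10 stood close to the naive ones. The differences were 1.40 ± 0.34 log2 (SE) for placebo, 2.65-fold with a 95% interval of 1.55 to 4.51 (limma, adjusted p = 0.133), and 1.54 ± 0.34 for calcitriol, 2.90-fold with an interval of 1.70 to 4.95 (limma, adjusted p = 0.0589). Neither passed. Without placebo replicate 5 the placebo difference was 1.13 log2 (limma, adjusted p = 0.448). Without placebo replicate 10 both passed, at 1.84 log2 for placebo (limma, adjusted p = 0.0144) and with an adjusted p of 0.00976 for calcitriol. With array weights both also passed (limma, adjusted p = 0.0318 and 0.0201). The calcitriol difference alone passed with exact zeros treated as missing, with only the 2 groups compared and on the values as deposited (limma, adjusted p = 0.0217, 0.0314 and 0.045). Without naive replicate 2 or 3 it did not pass (limma, adjusted p = 0.0812 and 0.124).

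The other Csf3r probe sets showed no such shift. Probe set 95807_at stayed between 1125 and 1337 signal units on all 9 arrays, with differences of -0.07 ± 0.13 log2 (SE) for placebo (limma, adjusted p = 0.918) and -0.07 for calcitriol (limma, adjusted p = 0.891). Probe set 95808_g_at ranged from 151.8 to 254.6 on naive and from 202.2 to 298.1 on EAE arrays, with differences of 0.26 ± 0.22 and 0.24 log2 (limma, adjusted p = 0.787 and 0.743). The difference between 93198_at and 95807_at was higher in EAE by 1.48 log2 with placebo and 1.61 with calcitriol (two-sided exact permutation p = 0.1 for each, adjusted 0.25). A statement on Csf3r in these cords therefore depends on the probe set.

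**Figure D2:**
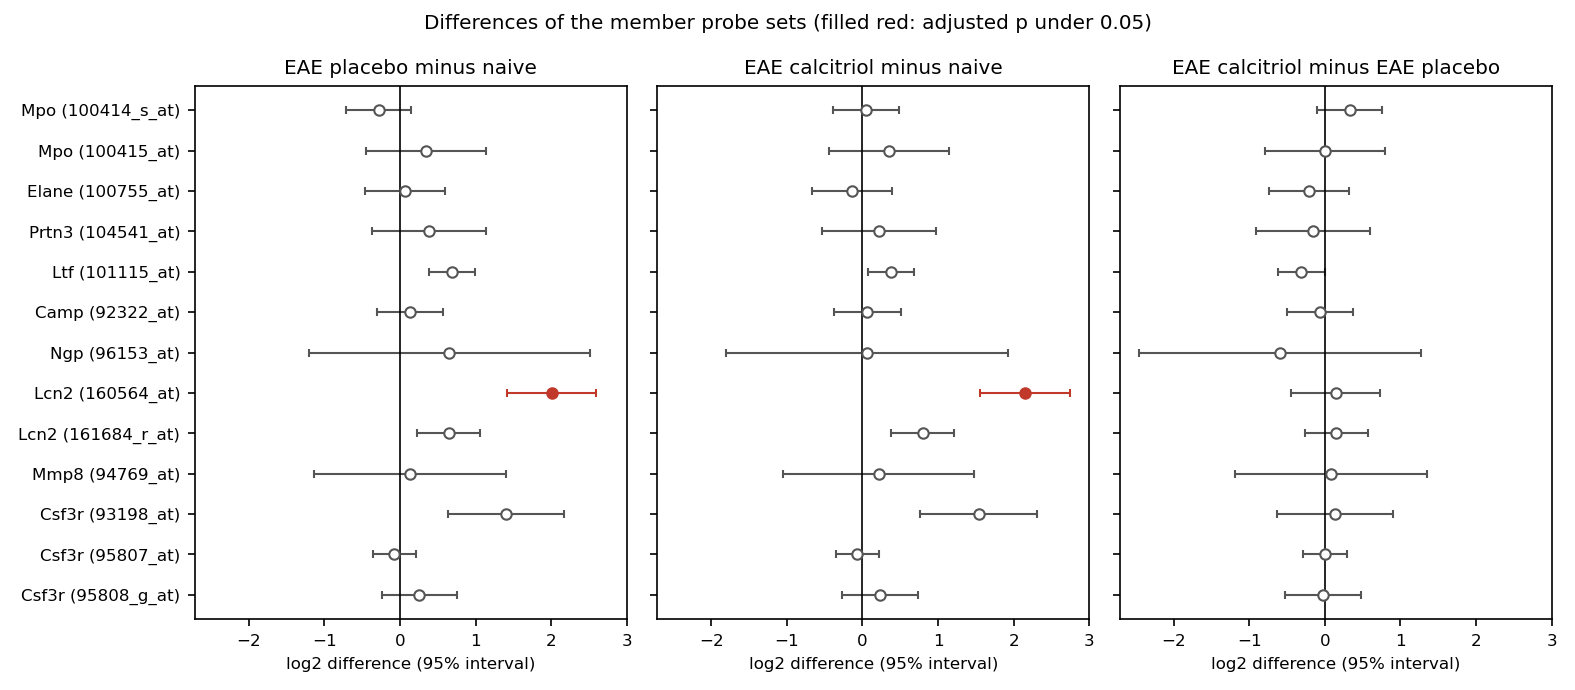
Log2 difference (horizontal axis) of the 13 probe sets in the 3 comparisons, with 95% intervals of the fit as bars and filled points for calls. Lcn2 160564_at is the filled point in both comparisons with naive cord, at 2.01 and 2.15, and no interval of calcitriol against placebo is called.

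Calcitriol was given 6 h before the cords were taken, and the direct comparison with placebo asks whether it changed these genes in EAE. None of the 13 probe sets passed (limma, 0 called over all 12177 probe sets, 0.00%), and none of the 13 had an unadjusted p under 0.05, against 314 over all probe sets (2.58%). The median difference was 0.00 log2, with 7 probe sets higher and 6 lower. Without overlap between the groups, 1 probe set was higher (4.82% of all were) and 1 was lower (5.17% of all were). Lcn2 160564_at differed by 0.14 ± 0.26 log2 (SE), with a 95% interval of -0.45 to 0.73, which leaves room for a change of over 1.5-fold upward. The other Lcn2 probe set differed by 0.15, with an interval of -0.26 to 0.57.

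Ltf was the member whose calcitriol arrays all lay below the placebo arrays. The difference was -0.31 ± 0.14 log2 (SE), with an interval of -0.62 to 0.000622 and an unadjusted p of 0.0504 (limma, adjusted p = 1). Mpo 100414_s_at was the member whose calcitriol arrays all lay above the placebo arrays, by 0.33 ± 0.19 log2 with an interval of -0.10 to 0.76, whereas 100415_at differed by 0.01 with an interval of -0.79 to 0.80. The intervals of the other members were -0.74 to 0.32 for Elane, -0.91 to 0.60 for Prtn3, -0.50 to 0.38 for Camp and -0.64 to 0.90 for Csf3r 93198_at. They were narrowest for Csf3r 95807_at, at -0.28 to 0.29, and widest for Ngp, at -2.45 to 1.27, and Mmp8, at -1.18 to 1.35. These intervals still hold changes of a size that 3 arrays a group do not resolve.

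Other genes of neutrophils were listed by role, with earlier results of these data known. Of 91 such genes 63 had a tested probe set. In placebo-treated EAE 7 rose, 0 fell and 56 did not pass, where 0.936% of all probe sets were called. The median of the 63 was 0.45 log2, against -0.02 over all probe sets. In calcitriol-treated EAE 10 rose, 1 fell and 52 did not pass, where 2.00% of all probe sets were called. The median was 0.41 log2, against -0.02 over all probe sets. Between calcitriol and placebo 0 of 63 passed (limma, 5 with an unadjusted p under 0.05, against 2.58% of all probe sets). The shares of all probe sets called in the comparisons with naive cord also apply to each list below. At an unadjusted p under 0.05 these shares were 9.33% with placebo and 11.9% with calcitriol. Of all probe sets, 47.7% had a positive difference with placebo, the share to set beside the counts of positive differences below. S100a8 and Cebpd passed in both comparisons under every alternative run, and each of the other genes that rose lost its call under at least 1. The placebo count was 2 without placebo replicate 1 or 5, 4 without placebo replicate 10 and 3 without naive replicate 3 or 4. The calcitriol count was 3 without calcitriol replicate 8, 6 without naive replicate 3 and 7 without naive replicate 4. Many of the genes that rose are not particular to neutrophils, and monocytes, macrophages or microglia express most of them too.

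The calcium-binding alarmins of the neutrophil cytosol rose in both EAE groups. S100a8 gave 82.3, 79.8 and 65.0 on naive, 617.9, 923.2 and 539.4 on placebo and 673.3, 579.5 and 1142 signal units on calcitriol arrays, with no EAE array near a naive one. It rose by 3.16 ± 0.28 log2 (SE) with placebo (limma, adjusted p = 0.00121) and by 3.34 with calcitriol (limma, adjusted p = 0.000867). S100a9, its partner in calprotectin, sat at the floor in every naive cord and rose by at least 2.22 log2 with placebo and 1.89 with calcitriol (limma, adjusted p = 0.0247 and 0.0282). Anxa3, an annexin of neutrophil granule membranes, rose by 1.71 log2 in both (limma, adjusted p = 0.0258 and 0.0145). Ncf1, a cytosolic subunit of the NADPH oxidase, differed by 0.56 and 0.61 log2 without passing. Of the 10 genes on this cytosol and secretory vesicle list, 3 rose in each comparison. With placebo 9 of the 10 had a positive difference, and Padi4 differed by -0.95 log2 without passing (limma, unadjusted p = 0.0447, adjusted p = 0.504).

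Among 9 other secondary and tertiary granule genes, 2 rose with placebo and 4 with calcitriol. Chil3, a chitinase-like protein of neutrophils and of alternatively activated macrophages, rose by 3.34 ± 0.61 log2 (SE) with placebo and by 4.14 with calcitriol (limma, adjusted p = 0.0386 and 0.00896). Cd63, a granule and lysosome membrane protein, rose by 1.70 ± 0.30 and 1.92 log2 (limma, adjusted p = 0.0376 and 0.0130). Itgam, the CD11b integrin chain of neutrophils, monocytes and microglia, differed by 2.18 log2 with placebo without passing and rose by 2.58 with calcitriol (limma, adjusted p = 0.0849 and 0.0254). Cyba, the p22phox subunit of the NADPH oxidase, differed by 1.05 with placebo and rose by 1.49 log2 with calcitriol (limma, adjusted p = 0.179 and 0.0282). The test of calcitriol against placebo called none of them. With placebo 6 of the 9 genes had a positive difference, while Mmp9, Hp and Cybb differed by -0.02, -0.04 and -0.007 log2 without passing. Ctsg (cathepsin G), the 1 other listed primary granule gene with a probe set, differed by 0.10 ± 0.61 log2 with placebo and by -0.04 with calcitriol (limma, adjusted p = 0.980 and 0.992).

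Of 16 receptor genes, 0 passed with placebo (limma, 5 with an unadjusted p under 0.05) and 1 rose with calcitriol. That gene was Itgb2, the integrin beta chain that pairs with CD11b, at 1.07 ± 0.26 log2 with placebo and 1.48 with calcitriol (limma, adjusted p = 0.139 and 0.0218). Cxcr2, the main chemokine receptor of neutrophils, differed by 0.60 and 0.67 log2, with all EAE arrays above all naive arrays and no pass (limma, adjusted p = 0.352 and 0.192). Over all probe sets, 7.39% were higher without overlap with placebo and 8.45% with calcitriol. Fpr2, a formyl peptide receptor, differed by 1.19 log2 with placebo and 1.68 with calcitriol without passing (limma, adjusted p = 0.421 and 0.131). Clec4d, a C-type lectin, lay at the floor in every naive cord and on placebo replicate 10 and gave 111.8 and 190.0 signal units on placebo replicates 1 and 5, also without passing (limma, adjusted p = 0.505). On calcitriol arrays Clec4d gave 86.5, 65.2 and 358.7, at least 2.71 log2 above naive cord, again without passing (limma, adjusted p = 0.188). Ly6g, the surface protein by which mouse neutrophils are usually sorted, was above the floor on 7 arrays and gave 14.2 to 70.55 signal units. Its difference of 0.03 ± 0.54 log2 (SE) with placebo (limma, adjusted p = 0.995) is too uncertain to show whether it changed. C5ar1 differed downward, by -0.36 log2 with placebo, without passing (limma, unadjusted p = 0.0493, adjusted p = 0.530). With placebo 12 of the 16 receptor genes had a positive difference.

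Of 10 attractants and growth factors, 0 passed in either comparison (limma, 1 and 2 with an unadjusted p under 0.05). Il1b, an inflammatory cytokine, likewise lay at the floor in every naive cord and on placebo replicate 10, gave 67.5 and 134.3 signal units on placebo replicates 1 and 5, and did not pass (limma, adjusted p = 0.443). On calcitriol arrays Il1b gave 73.0 to 143.8, at least 2.38 log2 above naive cord, without passing (limma, adjusted p = 0.103). That calcitriol difference passed with array weights, a floor at 5%, only the 2 groups compared and without placebo replicate 10. Csf3, the ligand of Csf3r, gave an exact 0 on naive replicate 2 and 474.9 to 614.9 signal units on the other 8 arrays. Its fitted difference of 1.54 ± 1.07 log2 therefore rests on that zero, and with exact zeros treated as missing it was -0.10. Il17a, a T cell cytokine that induces Csf3 and Lcn2 in other cells, likewise had an exact 0 on 1 naive array, naive replicate 4, and its fitted difference of 1.18 log2 (limma, adjusted p = 0.688) was 0.17 without that array. Il6 differed by 0.77 log2 (limma, adjusted p = 0.766).

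Of 11 transcription factors of the lineage, 2 rose in each comparison, both of the C/EBP family. Cebpd gave 43.5, 50.4 and 31.5 on naive, 474.7, 425.3 and 301.1 on placebo and 223.7, 360.1 and 249.1 signal units on calcitriol arrays. It rose by 3.26 ± 0.27 log2 (SE) with placebo and by 2.73 with calcitriol (limma, adjusted p = 0.000783 and 0.00189), and Cebpb rose by 2.86 ± 0.46 and 3.09 (limma, adjusted p = 0.0240 and 0.00932). Both factors act in many cell types, Cebpb among others in macrophages and in emergency neutrophil production. Cebpa, needed early in the granulocyte lineage, and Irf8, which directs progenitors to monocytes, differed by 0.45 and 0.48 log2 with placebo without passing (limma, adjusted p = 0.396 and 0.286).

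**Figure D3:**
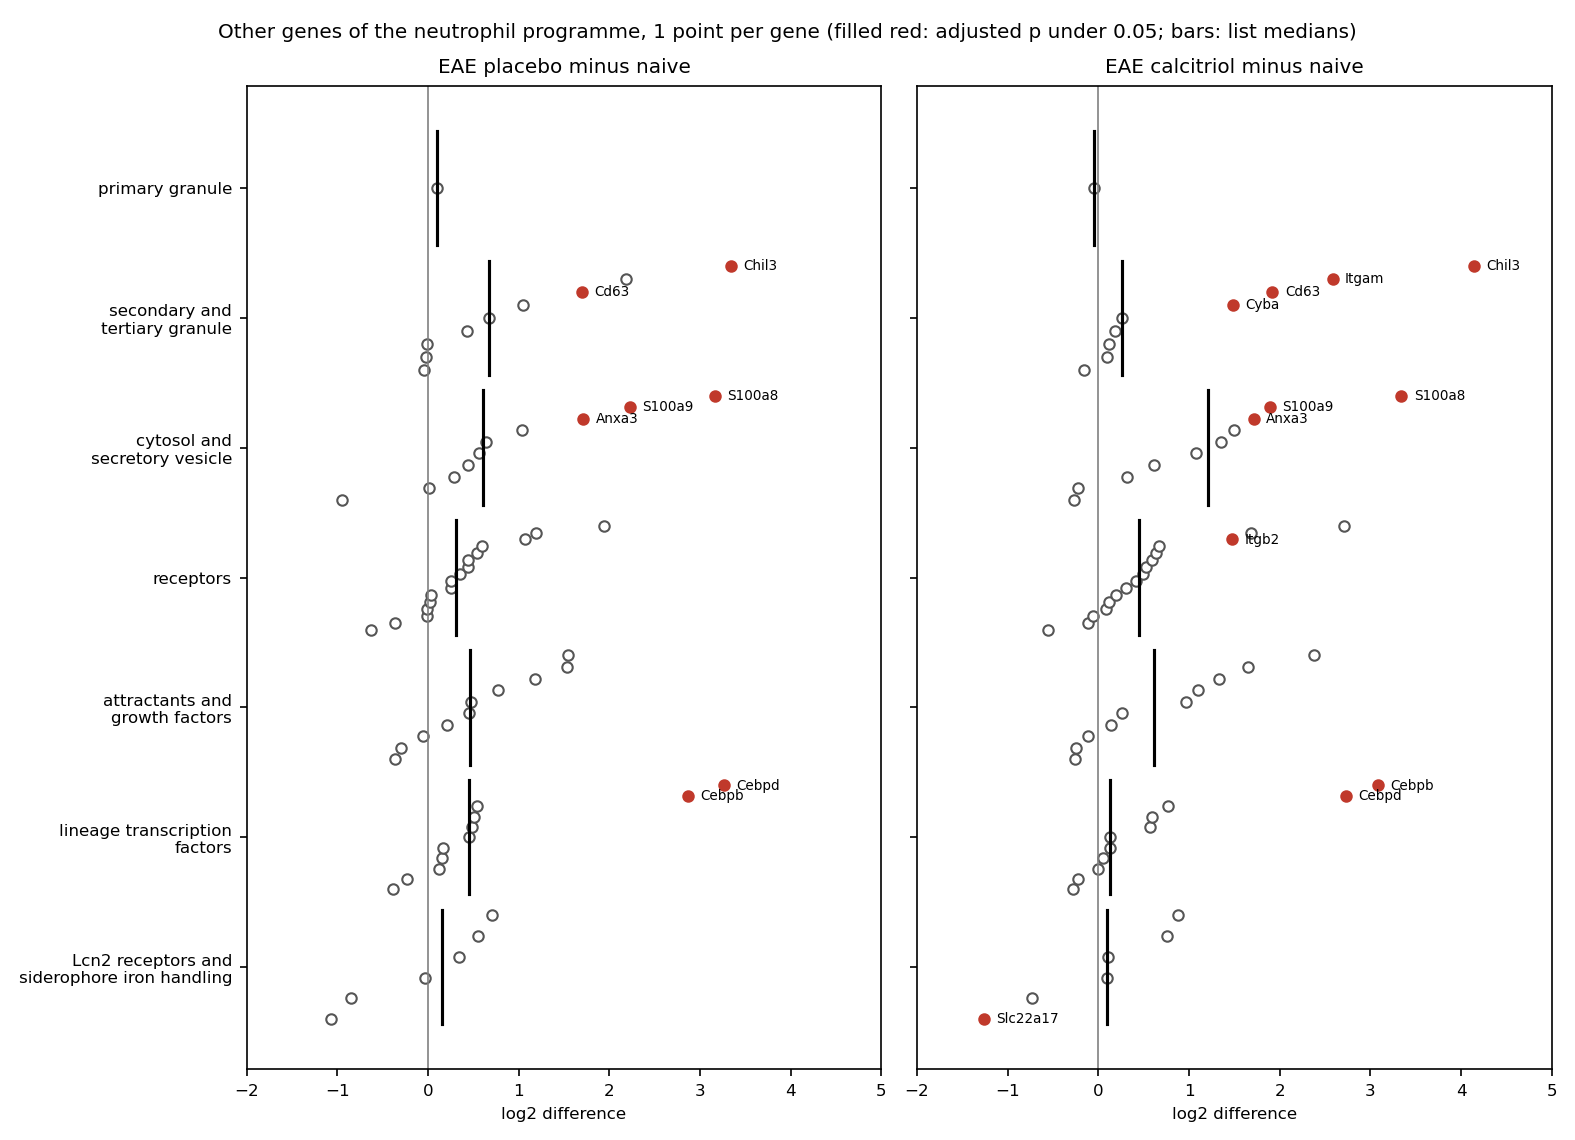
Log2 difference from naive cord (horizontal axis) of the 63 tested neutrophil genes that are no members, by list, for placebo and calcitriol, with black bars at the list medians, filled points for calls and names beside them. The called points above 0 include Chil3, Cebpd and S100a8, and Slc22a17 is the called point below 0.

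The receptors of lipocalin 2 were listed because Lcn2 was the member that changed. Slc22a17, a receptor that takes lipocalin 2 into cells, gave 1969, 1664 and 1565 on naive, 1100, 1030 and 779.2 on placebo and 807.8, 698.6 and 658.6 signal units on calcitriol arrays. No EAE array reached the lowest naive array. It differed by -0.85 ± 0.17 log2 (SE) with placebo, which did not pass (limma, adjusted p = 0.0613), and fell by 1.26 with calcitriol (limma, adjusted p = 0.00625). Lrp2 (megalin), an endocytic receptor that also binds lipocalin 2, differed by 0.71 ± 0.29 log2 with placebo (limma, adjusted p = 0.478). Of 6 genes on this list, 0 passed with placebo (limma, 3 with an unadjusted p under 0.05) and 1 with calcitriol. Tfrc, the transferrin receptor, differed by -1.07 log2 and Fth1, ferritin heavy chain, by 0.55 with placebo without passing (limma, adjusted p = 0.350 and 0.655). Another probe set of each had the opposite sign.

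The genes whose levels over the 9 arrays ran closest to a member, after each was centred on its mean, were found by the root mean square distance in log2 among 8161 genes. For Lcn2 160564_at they were Psme1 at 0.285, Ccl9 at 0.302 and Tgfbi at 0.307. Psme1 encodes a proteasome activator subunit, Ccl9 a chemokine and Tgfbi a matrix protein. For Csf3r 93198_at they were Il1r2 at 0.196, Polg at 0.257 and Plin2 at 0.282. Il1r2, the decoy receptor for interleukin 1 on neutrophils, gave 115.0 on placebo replicate 10 against 278.1 and 288.2 on placebo replicates 1 and 5, the same low array as Csf3r 93198_at. For Ngp the nearest gene, Araf, was at 0.625, and for Mmp8 the nearest, Tnfsf11, was at 0.248.

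Some markers of other cells that express Lcn2 or the listed genes also differed between naive and EAE cord. The summed signal of 15 monocyte, macrophage and microglia genes ranged from 2449 to 2603 in naive cord, 4922 to 6676 after placebo and 6405 to 10280 after calcitriol, and 3 of its genes rose with placebo and 5 with calcitriol. Arg1 and Lyz2, both called with placebo, were at the floor in every naive cord. Ctss, the other gene called with placebo, rose by 2.35 log2 (limma, adjusted p = 0.00886). The list was not restricted to genes that neutrophils lack, so a rise in it is not particular to the cells it is named after. Without Arg1, which had the largest difference, the other 14 genes still summed to 2449 to 2603, 3839 to 5211 and 4463 to 7174. Several identity markers of these cells did not pass with placebo, with differences of -0.68 log2 for Adgre1, -0.09 for Cx3cr1, 0.18 for Cd68 and 0.57 for Csf1r (limma, adjusted p = 0.795, 0.901, 0.974 and 0.307). Cd68 had a 0 on calcitriol replicate 8, which enters the spread of the fit, and gave 244.3 to 372.7 on the other arrays. Cd74 and Cd14 differed by 1.86 and 0.76 log2, also without passing (limma, adjusted p = 0.152 and 0.141). The summed signal of 10 reactive astrocyte genes ranged from 7039 to 12090 in naive cord, 14160 to 16380 after placebo and 10110 to 14460 after calcitriol, with 2 and 3 genes called. The largest difference of this list was that of Serpina3n, an acute-phase protease inhibitor, at 138.8 to 151.3 on naive and 4266 to 7184 signal units on placebo arrays. The other 9 genes summed to 6900 to 11950, 9200 to 10040 and 6810 to 9679, with naive replicate 2 the highest array. The placebo sums still lay above those of naive replicates 3 and 4, 7660 and 6900, so the overlap came from naive replicate 2. On that array Aldoc gave 6464 and Aqp4 3332 signal units. With placebo, Aqp4, Aldoc, S100b and Slc1a2 differed by -0.12, -0.10, -0.999 and 0.03 log2 without passing. Other genes of the list went upward. Osmr, the other gene called with placebo, rose by 1.86 log2 (limma, adjusted p = 0.0424) from naive signals of 35.1, 5.64 and 8.77. Timp1 and Vim differed by 0.67 and 0.21 log2 without passing (limma, adjusted p = 0.0816 and 0.786). Gfap, the defining astrocyte gene, had an exact 0 on naive replicate 2, as Gja1, Nefl and Mbp did. On naive replicates 3 and 4 Gfap gave 953.1 and 1002, and on placebo arrays 2311 to 2714 signal units. Gja1 went the other way, at 1357 and 1276 on these naive arrays and 657.6 to 915.9 on placebo arrays. The part of either cell type in the rise of Lcn2 was not tested.

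The lists for blood and marrow gave no calls. Summed signals of 15 erythroid and vertebral marrow genes ranged from 3371 to 4287 in naive cord, 3224 to 3728 after placebo and 3538 to 3932 after calcitriol, and 0 genes passed in either comparison. The 9 T cell genes summed to 1916 to 2160, 1729 to 1803 and 1751 to 2025, also with 0 called. The 10 neuron genes summed to 6796 to 13330 in naive cord, 4913 to 6761 after placebo and 4596 to 5177 after calcitriol with 0 called, and the 7 oligodendrocyte genes to 5714 to 7366, 5872 to 6326 and 4210 to 6696, with 1 lower with calcitriol. Neuron sums of EAE arrays thus lay below those of naive arrays, but the highest placebo sum, 6761, was close to the lowest naive sum, 6796. Naive replicate 2 had an exact 0 for Nefl and Stmn2. It gave 3305 signal units for Nefm, against 1549 and 1209 on naive replicates 3 and 4.

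**Figure D4:**
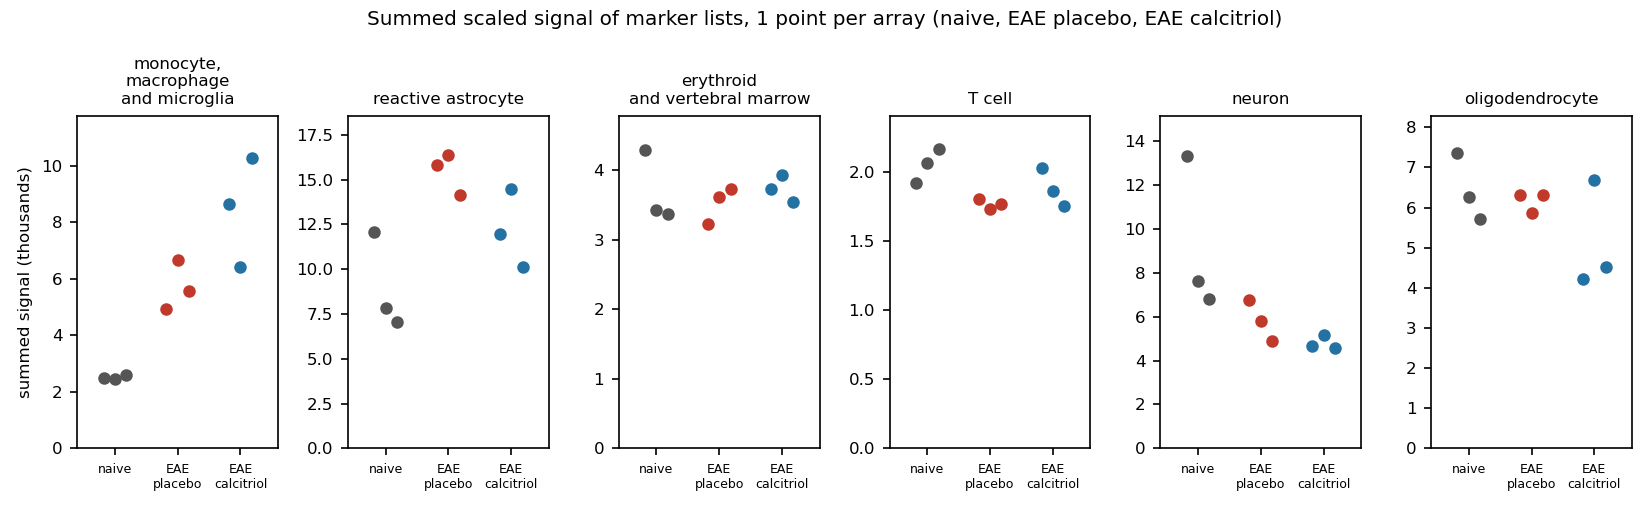
Summed scaled signal (vertical axis, starting at 0) of 6 marker lists on each of the 9 arrays, by group. The monocyte, macrophage and microglia sum of every EAE array exceeds that of every naive array, and the marrow sums overlap. The reactive astrocyte sum of every placebo array exceeds that of every naive array with Serpina3n counted. Without Serpina3n, naive replicate 2 is the highest array.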

How the data were processed

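The deposited values are linear intensity signals, 1 per probe set and array. The steps by which the authors obtained these intensity values are not given in the sources used here, and probe-level files were not used. Symbols came from GEO's platform annotation without updating. Members and gene lists were chosen with earlier results of these data known.

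Each array was scaled to a common mean of 192.8 over probe sets outside the 66 controls, leaving out 2% at each end, floored at 10% of that mean and log2-transformed. Of 12422 probe sets, the 12177 that exceeded the floor on 3 or more arrays were fitted together with limma 3.58.1 (R 4.3.3; empirical Bayes with an intensity trend, 1 spread over 3 groups, 6 residual degrees of freedom). Calls had a Benjamini-Hochberg adjusted p under 0.05 within a comparison. The number of arrays limits precision: the median SE was 0.29 log2 over all probe sets and 0.24 over members.

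Related genes were represented by 1 probe set each, and those named were, in each list, up to 4 with the smallest p in placebo against naive plus every gene past the threshold. Ly6g, C5ar1, Padi4, Mmp9, Hp, Cybb, Vpreb1, the marker genes named singly and the sums without 1 gene were chosen after their values were seen. Alternatives were array weights, other floors and filters, quantile normalization, unscaled values, missing zeros, no trend, 2-group fits and each array left out. The fit was tested on simulated data. Plots used Python 3.11.15, pandas 2.3.3 and matplotlib 3.10.9.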

Additional observations from a re-analysis of the deposited data

How the results depend on the processing

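The number of member probe sets called was 1 for placebo against naive. It was 3 with array weights (Lcn2, Ltf and Csf3r; weights of 0.258, 4.38 and 0.414 on naive replicates 2, 3 and 4), 2 with exact zeros missing, 2 with the values as deposited, and 0 to 2 with 1 array left out, 0 without placebo replicate 5 and 2 without placebo replicate 10. For calcitriol against naive it was 1, and 3 with array weights, 3 with exact zeros missing, 2 with only the 2 groups compared, 2 with the values as deposited and 1 to 2 with 1 array left out. Calcitriol against placebo gave 0 calls under every alternative run. Of the related genes, 7 were called for placebo against naive, 12 with array weights, 3 with only the 2 groups compared and 2 to 6 with 1 array left out. For calcitriol against naive 11 were called, 19 with array weights, 6 with only the 2 groups and 3 to 13 with 1 array left out. The share of all probe sets called under each alternative is not given here, so these counts are no result about the listed genes by themselves. With the values as deposited the median of all probe sets moved from -0.02 to 0.11 log2 for placebo against naive and from -0.02 to 0.09 for calcitriol.

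Signs turned in the differences given here, of which Il6 alone was called under any setting, with array weights. For placebo against naive, array weights gave -0.10 for Mpo 100415_at, -0.12 for Elane, 0.029 for Csf3r 95807_at and -0.31 for Ctsg, exact zeros missing gave -0.10 for Csf3, a floor at 20% gave -0.23 for Ctsg, and the values as deposited gave 0.059 for Csf3r 95807_at. For calcitriol against naive, array weights gave -0.18 for Mpo 100415_at and 0.018 for Csf3r 95807_at, a floor at 20% gave -0.22 for Ngp, and the values as deposited gave 0.050 for Csf3r 95807_at. For calcitriol against placebo, array weights gave -0.075 for Mpo 100415_at and -0.012 for Csf3r 95807_at, and a floor at 20% gave -0.047 for Mmp8. Quantile normalization gave -0.00107 for Mpo 100415_at, -0.00625 for Mmp8 and -0.063 for Csf3r 95807_at, and the values as deposited gave -0.00745 for Mpo 100415_at and -0.00969 for Csf3r 95807_at. With 1 array left out, the ranges that crossed 0 for placebo against naive were -0.14 to 1.58 for Ngp, -0.083 to 0.25 for Camp, -0.21 to 0.24 for Elane, -0.39 to 0.52 for Mmp8, -0.69 to 0.67 for Ctsg, -0.10 to 2.40 for Csf3 and -0.061 to 1.31 for Il6. For calcitriol against naive they were -0.00408 to 0.18 for Camp, -0.44 to 0.72 for Ngp, -0.19 to 0.60 for Mmp8, -0.10 to 0.17 for Mpo 100414_s_at and -0.42 to 0.027 for Elane. For calcitriol against placebo they were -0.21 to 0.14 for Mpo 100415_at, -0.039 to 0.042 for Csf3r 95807_at, -0.38 to 0.13 for Prtn3, -0.15 to 0.13 for Csf3r 95808_g_at, -0.33 to 0.60 for Mmp8, -0.00790 to 0.33 for Lcn2 160564_at, -1.52 to 0.21 for Ngp, -0.18 to 0.15 for Camp and -0.30 to 0.41 for Csf3r 93198_at. The cause of these changes was not tested. No paired analysis was possible because the groups share no replicate numbers.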
